A study of Mus musculus with 10 samples.

Results

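Inositol synthesis and transport in mouse liver was followed through 9 genes, namely Isyna1, Impa1, Impa2, Miox, Slc5a3, Slc2a13, Cdipt, Itpk1 and Ippk, of the 55401 genes counted. The 9 were taken for their known roles in making, carrying, breaking down or using inositol, and Isyna1 was chosen by its lower level in the mice lacking Thrb, in this same comparison. The values of Isyna1 are therefore a description, with no test, and tests are given only for the other genes. The data were RNA-seq counts of whole liver from 5 wild-type (WT) and 5 Thrb hep-/- samples on the C57Bl6/J strain. Each sample is called a mouse here, although the labels number samples within a genotype without naming animals. Thrb hep-/- stands for liver-specific deletion of Thrb, which encodes the thyroid hormone receptor beta, obtained by crossing Thrb-loxP mice with Afp-Cre mice, where Cre is driven by the promoter of Afp, a gene of fetal liver cells. The WT mice were littermates, and whether they carried the loxP or the Cre allele is not given in the sources used here. All 10 mice were untreated, ate standard chow and lived under the same light cycle, and neither their age nor their sex is given in the sources used here.

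Myo-inositol is a cyclic sugar alcohol made from glucose. Inositol-3-phosphate synthase, encoded by Isyna1, turns glucose 6-phosphate into inositol phosphate, the committed step, and the inositol monophosphatases encoded by Impa1 and Impa2 remove the phosphate to give free inositol. Cells also take inositol up through Slc5a3, a sodium-coupled carrier known to respond to osmotic stress, and through Slc2a13, a proton-coupled carrier. Miox encodes the oxygenase that opens the inositol ring, and is known as a kidney gene. Cdipt joins inositol to a lipid to make phosphatidylinositol, the parent of the phosphoinositide signalling lipids, while Itpk1 and Ippk add phosphates to soluble inositol phosphates on the way to inositol hexakisphosphate. Thyroid hormone receptors regulate genes by binding DNA elements built from the hexamer AGGTCA, often in pairs.

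The sequences before the gene starts were read because the comparison removes a factor that binds DNA. RefSeq promoter windows on GRCm38.p6, from 250 bases before to 50 bases after a start, were found for 6 of the 9 genes, with 7 windows in all. Printed here are Isyna1, the gene with the lower level, Miox, the one gene whose window holds AGGTCA, and Slc5a3, the carrier with the largest positive fold change among the 7 tested, all on the plus strand and 5′ to 3′, with AGGTCA in capitals.
Isyna1 (chr8:70594231-70594530): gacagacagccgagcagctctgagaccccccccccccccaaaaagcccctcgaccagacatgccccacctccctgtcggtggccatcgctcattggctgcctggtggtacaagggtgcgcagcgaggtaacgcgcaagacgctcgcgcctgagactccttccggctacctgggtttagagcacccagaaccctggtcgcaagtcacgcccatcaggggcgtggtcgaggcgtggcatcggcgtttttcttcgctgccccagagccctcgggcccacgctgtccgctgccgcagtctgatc
Miox (chr15:89334223-89334522): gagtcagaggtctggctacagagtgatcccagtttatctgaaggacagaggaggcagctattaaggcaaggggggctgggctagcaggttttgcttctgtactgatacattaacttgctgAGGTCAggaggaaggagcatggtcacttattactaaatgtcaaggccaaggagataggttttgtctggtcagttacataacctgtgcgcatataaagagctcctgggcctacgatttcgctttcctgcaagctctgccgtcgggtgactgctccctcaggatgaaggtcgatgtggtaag
Slc5a3 (chr16:92058072-92058371): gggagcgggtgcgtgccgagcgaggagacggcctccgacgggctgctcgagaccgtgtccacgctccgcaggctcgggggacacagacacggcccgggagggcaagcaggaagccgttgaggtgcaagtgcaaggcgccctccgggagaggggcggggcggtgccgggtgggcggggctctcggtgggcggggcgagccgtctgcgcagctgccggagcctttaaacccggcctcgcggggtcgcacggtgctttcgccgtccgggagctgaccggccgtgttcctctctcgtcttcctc
AGGTCA was searched on both strands. It stood in 1 of the 7 windows, that of Miox, against 16.3% of the 32851 windows of all genes. There it lay on the plus strand, 130 bases before the RefSeq start. For Isyna1 and Miox the RefSeq start differs from the gene start given below. A pair of AGGTCA in the same direction, 4 bases apart, stood in 0 of the 7 windows and in 0.0152% of all windows. G and C made up 66.0% of the Isyna1 window and 73.3% of the Slc5a3 window, beside a median of 52.7% over all windows. A letter match is a description of these windows and does not show binding, and a window without a match says only that these letters are not in it.

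Library totals ranged from 26477195 to 28590704 counts, so that 3 counts corresponded to 0.105 to 0.113 CPM, the counts of a gene relative to its library's total. Levels are given as CPM scaled by TMM factors, a correction for library composition. Thrb mRNA, the targeted gene, was 33.3 ± 0.643 CPM (SD, n = 5) in WT and 26.7 ± 1.93 CPM in Thrb hep-/- liver, a log2 fold change of -0.32 (SE 0.067, adjusted p = 0.036, edgeR quasi-likelihood test). Dio1, a known thyroid hormone target that encodes a deiodinase, was 166 ± 25.5 CPM in WT and 20.3 ± 5.06 CPM in Thrb hep-/- liver. Over the 12234 genes that passed a filter of at least 1 CPM in at least 5 libraries, 499 (4.08%) passed an adjusted p of 0.15, the threshold used in the study. Of the tested genes 2.57% were lower and 1.51% higher in Thrb hep-/- liver at that threshold, and 1.35% passed 0.05 in either direction. In whole tissue, fewer cells of a type and less RNA per cell cannot be told apart. The summed level of 8 hepatocyte marker genes was 88700 to 131025 CPM in WT and 106065 to 118709 CPM in Thrb hep-/- liver. Of the 8, 0 passed the threshold, and 6 had positive log2 fold changes, with a median of 0.060. An unadjusted p under 0.05 (edgeR) was found for 1 of them, which was higher, beside 13.6% of all tested genes.

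Isyna1 (ENSMUSG00000019139, chromosome 8, 70594373 to 70597290 on the plus strand of GRCm38) shared no exon sequence with another gene. Its levels were 18.5, 26.5, 19.8, 15.2 and 24.8 CPM in WT mice 1 to 5 and 6.39, 4.84, 6.55, 8.24 and 4.60 CPM in Thrb hep-/- mice 1 to 5. Every Thrb hep-/- mouse lay below every WT mouse, with mouse 4 the highest of the Thrb hep-/- mice and also mouse 4 the lowest of the WT mice. The means were 21.0 ± 4.63 CPM in WT and 6.12 ± 1.48 CPM in Thrb hep-/- liver, that is 29.2% of the WT level. These rested on 2856 counts in WT and 883 in Thrb hep-/- liver. The log2 fold change was -1.77 (SE 0.19), and 0.335% of the tested genes had a lower one. Genotypes did not overlap in 3.64% of tested genes, with the Thrb hep-/- mice lower in 2.26% and higher in 1.38%, and since Isyna1 was chosen for this difference its own lack of overlap adds nothing to that.

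**Figure D1:**
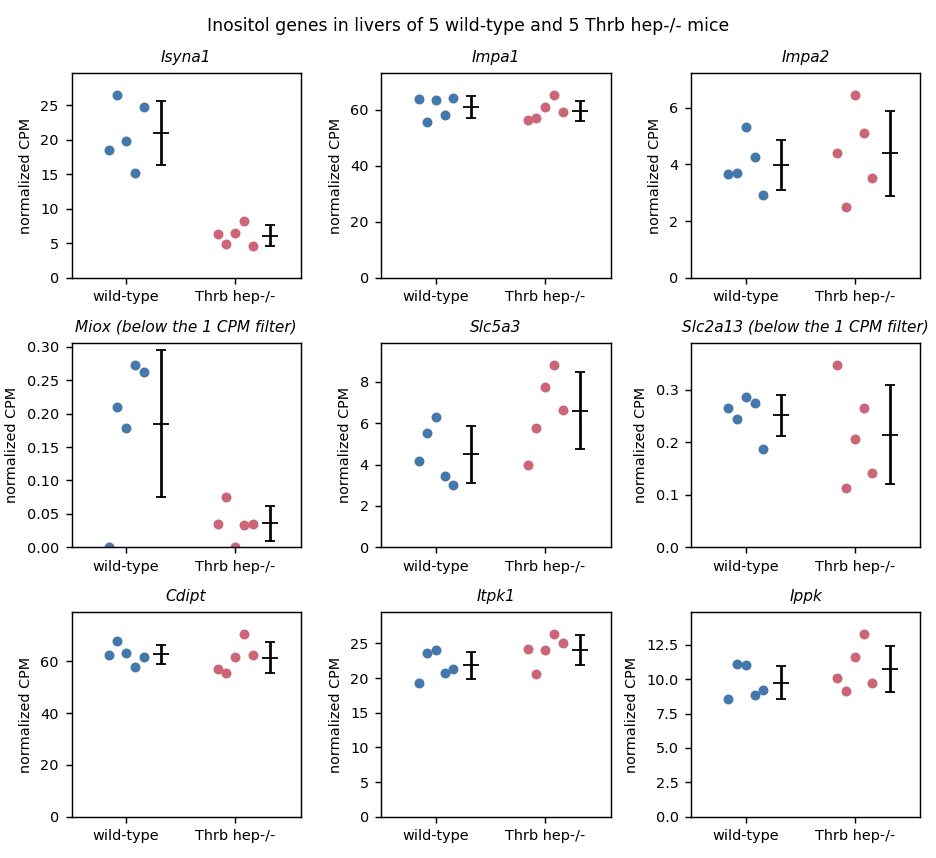
Normalized CPM of the 9 inositol genes in each mouse, with a panel and a linear axis from 0 for each gene. Points are mice in the order of their replicate numbers, and bars are the mean with SD (n = 5). The 5 Thrb hep-/- mice sit at 4.60 to 8.24 CPM for Isyna1, below the 15.2 to 26.5 CPM of the WT mice, while the genotypes overlap for the other 8 genes.

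Acute-phase genes, which encode secreted liver proteins of inflammation, moved with the genotype too. The list of 21 such genes was chosen with earlier results of these data known. Of these, 20 were tested and 14 passed the threshold, all lower in Thrb hep-/- liver, beside 2.57% of all tested genes. The summed level of the 21 ranged from 38565 to 89006 CPM with a median of 64654 in WT. In Thrb hep-/- liver it ranged from 25457 to 42418 CPM with a median of 32031, so the ranges overlapped. Within WT, mouse 2 and then mouse 5 had the highest sums and the highest Isyna1 levels. Mouse 4 of WT had the lowest Isyna1 level and the next to lowest sum, and mouse 3 had the lowest sum with an intermediate Isyna1 level. Within Thrb hep-/- liver, mouse 4 had the lowest sum and the highest Isyna1 level, and mouse 1 had the highest sum with an intermediate Isyna1 level. With a component of the acute-phase genes as a covariate, which correlated with the genotype at -0.85 over the 10 mice, the log2 fold change of Isyna1 was -1.60 (SE 0.36). At that correlation the component and the genotype cannot be told apart, and the part of either in the Isyna1 level was not tested.

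The monophosphatase genes, which act next in synthesis, did not pass the test. Impa1 (ENSMUSG00000027531, chromosome 3) stood at 63.8, 55.7, 63.4, 58.4 and 64.4 CPM in WT mice 1 to 5 and at 56.3, 57.1, 60.9, 65.3 and 59.4 CPM in Thrb hep-/- mice 1 to 5. The genotypes overlapped over nearly their whole ranges. With a log2 fold change of -0.03 (SE 0.069, 95% interval -0.18 to 0.12, adjusted p = 0.90, edgeR), the interval held changes down to 0.882-fold and up to 1.09-fold. Impa2 (ENSMUSG00000024525, chromosome 18), the second enzyme of this step, was lower in level, at 3.67, 3.71, 5.33, 4.26 and 2.92 CPM in WT and 4.41, 2.51, 6.45, 5.10 and 3.54 CPM in Thrb hep-/- mice. The genotypes overlapped here too, and the lowest and the highest of the 10 mice were both Thrb hep-/-. Its log2 fold change was 0.15 (SE 0.23, 95% interval -0.36 to 0.66, adjusted p = 0.85, edgeR), a wider interval than that of Impa1. The sign of Impa2 turned with the acute-phase component as a covariate, to -0.83 (SE 0.33). Of the exon sequence of Impa2, 23.6% is shared with B430212C06Rik, an antisense gene at 0 to 0.189 CPM, and reads overlapping both were left uncounted. Impa1 shares 4.5% of its exon sequence with Gm38303, which had 0 counts.

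Of the uptake carriers, Slc5a3 had the larger difference. Slc5a3 (ENSMUSG00000089774, chromosome 16, 92058322 to 92087473) stood at 4.16, 5.52, 6.33, 3.44 and 3.03 CPM in WT and at 3.99, 5.77, 7.75, 8.84 and 6.65 CPM in Thrb hep-/- mice. Of the Thrb hep-/- mice, 3 of 5 lay above all WT mice, and the others lay within the WT range. The difference on the log2 scale was 0.55 (SE 0.24, 95% interval 0.03 to 1.07), with an unadjusted p of 0.039 and an adjusted p of 0.34 by edgeR, and so did not pass. An unadjusted p under 0.05 was reached by 13.6% of all tested genes. With the acute-phase component as a covariate the log2 fold change of Slc5a3 was 0.09 (SE 0.44, against 0.24 without it). That component correlated with the genotype at -0.85, so this value does not show whether the difference remains. Exons of Slc5a3 overlap those of Mrps6, a mitochondrial ribosomal protein gene, and of Gm49711 over 159 bases, and the RefSeq windows of the pair start 14 bases apart. Mrps6 was 2.83 ± 0.0774 CPM in WT and 3.43 ± 0.757 CPM in Thrb hep-/- liver (log2 fold change 0.28, SE 0.16, adjusted p = 0.48, edgeR). Slc2a13 (ENSMUSG00000036298, chromosome 15) had 7, 7, 8, 7 and 5 counts in WT and 10, 3, 6, 8 and 4 counts in Thrb hep-/- mice, below the filter. The Thrb hep-/- to WT ratio of its counts was 0.862, with an exact 95% interval of 0.512 to 1.45 that covers counting error only. A difference in Slc2a13 within that interval was not detectable at this depth.

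Miox (ENSMUSG00000022613, chromosome 15, 89334398 to 89337015), the gene of inositol breakdown, was also below the filter. It had 0, 6, 5, 7 and 7 counts in WT and 1, 2, 0, 1 and 1 counts in Thrb hep-/- mice. In each genotype 1 mouse had 0 counts, so the groups overlapped, and the other 4 WT mice lay above all 5 Thrb hep-/- mice. The total was 25 counts in WT and 5 in Thrb hep-/- liver, a ratio of 0.189 with an exact 95% interval of 0.0565 to 0.503 for counting error only. An exact two-sided permutation test of the genotypes over the 10 mice gave p = 0.048 for its level, where the smallest p this design allows is 0.0079, and a fit without the filter gave an adjusted p of 0.16 (edgeR). The summed level of 7 kidney tubule markers was 0 to 0.107 CPM in WT and 0 to 0.103 CPM in Thrb hep-/- liver, at or below the level of 3 counts, and Kap and Slc12a1 were at 0 in every library.

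The genes that use inositol overlapped between genotypes. Cdipt (ENSMUSG00000030682, chromosome 7), which makes phosphatidylinositol, was 62.6 ± 3.67 CPM in WT and 61.4 ± 5.80 CPM in Thrb hep-/- liver. Its range was 57.8 to 68.0 CPM in WT and 55.6 to 70.4 CPM in Thrb hep-/- mice, so the WT range lay inside the other. By edgeR its log2 fold change was -0.03 (SE 0.077, 95% interval -0.20 to 0.14, adjusted p = 0.93). Cdipt shares 169 bases of exon with Cdiptos, a gene on the opposite strand. Itpk1 (ENSMUSG00000057963, chromosome 12), a kinase of inositol phosphates, was at 19.3, 23.7, 24.1, 20.7 and 21.3 CPM in WT and at 24.2, 20.6, 24.1, 26.3 and 25.1 CPM in Thrb hep-/- mice. Most Thrb hep-/- mice stood at or above the upper end of WT, and mouse 2 stood among the lower WT mice. The fitted difference on the log2 scale was 0.14 (SE 0.088, 95% interval -0.05 to 0.33, adjusted p = 0.52, edgeR), and 109 bases of its exons are shared with Gm28373. Ippk (ENSMUSG00000021385, chromosome 13), which adds the last phosphate to make the hexakisphosphate, was 9.76 ± 1.21 CPM in WT and 10.8 ± 1.67 CPM in Thrb hep-/- liver, a log2 fold change of 0.14 (SE 0.12, 95% interval -0.12 to 0.41, adjusted p = 0.67, edgeR). The sign of Ippk turned to -0.061 (SE 0.23) with the acute-phase covariate. Ippk shares 315 bases of its exons with Cenpp, a protein-coding gene on the opposite strand. Of the 6 members tested other than Isyna1, 0 passed the threshold of 0.15, against 4.08% of all tested genes. An unadjusted p under 0.05 (edgeR) was found for 1 of the 6, against 13.6% of all tested genes. DESeq2 and limma-voom also called 0 of these 6.

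**Figure D2:**
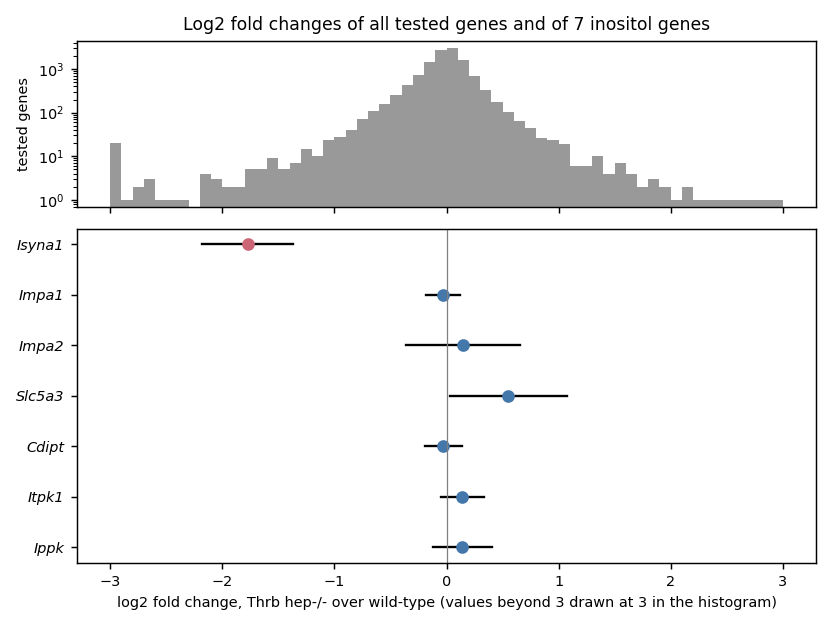
Log2 fold change (Thrb hep-/- minus WT) of the 7 inositol genes that passed the filter, as points with 95% intervals from the edgeR fit, under a histogram of all 12234 tested genes with a log axis of gene number. Isyna1 lies at -1.77, and since it was chosen for its fall, its interval is a description and no test. The other 6 lie between -0.03 and 0.55.

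Levels of different genes can be compared only per length of exon sequence, and on that scale Isyna1 changed its place among the 9. In WT liver the order of the means, in CPM per kilobase, was Cdipt at 24.2 ± 1.42, Impa1 at 11.2 ± 0.713, Isyna1 at 8.62 ± 1.90, Itpk1 at 6.57 ± 0.605, Ippk at 2.02 ± 0.251, Impa2 at 0.741 ± 0.166 and Slc5a3 at 0.412 ± 0.128, followed by Miox at 0.112 and Slc2a13 at 0.0300. Neighbours in this order did not all differ beyond their spread. Isyna1 exceeded Impa1 in 1 of 5 WT mice and Itpk1 in 5 of 5. In Thrb hep-/- liver Isyna1 was 2.51 ± 0.607 CPM per kilobase. It was then above Itpk1 in 0 of 5 mice and above Ippk, at 2.23 ± 0.346, in 4 of 5. The rank of Isyna1 among the 9 was 2 or 3 in the WT mice and 4 or 5 in the Thrb hep-/- mice. Isyna1 was chosen for its fall, so this change of rank restates that fall and is a description.

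**Figure D3:**
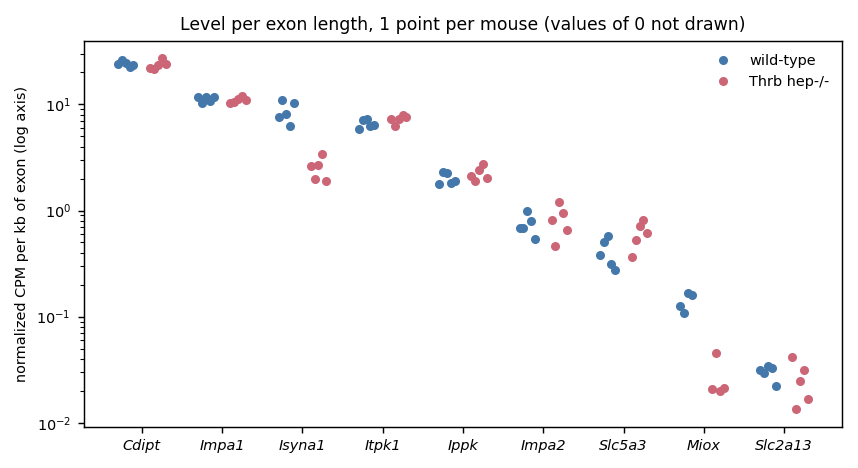
Level of each inositol gene per kilobase of exon sequence in each mouse, on a log axis, in order of the WT mean. Points are mice, and values of 0 are not drawn. Isyna1, chosen for its fall, sits between Impa1 and Itpk1 in WT at 8.62 and near Ippk in Thrb hep-/- liver at 2.51 CPM per kilobase.

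The wider pathway was described by 8 lists with 106 genes in all, of which 94 were tested. In these lists 1 gene passed the threshold, or 1.06%, beside 4.08% of all tested genes. An unadjusted p under 0.05 (edgeR) was found for 9 of the 94, beside 13.6% of all tested genes. Of the 9, 5 were lower and 4 were higher. Positive log2 fold changes were found for 45 genes and negative ones for 49, and the median was -0.016, beside 0.00054 over all tested genes. Over the alternatives, 0 to 4 genes of the lists passed. The gene that passed was Plce1 (ENSMUSG00000024998), a phospholipase C that cleaves a phosphoinositide to release inositol trisphosphate. It was at 19.0, 18.4, 13.2, 19.0 and 18.2 CPM in WT and at 11.6, 9.90, 9.98, 12.8 and 12.6 CPM in Thrb hep-/- mice. The genotypes did not overlap, although WT mouse 3 lay close to the Thrb hep-/- mice. On the log2 scale the difference was -0.63 (SE 0.12, 95% interval -0.88 to -0.37, adjusted p = 0.022, edgeR), and with the acute-phase component as a covariate it was -0.46 and did not pass.

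By the edgeR test the other 7 lists held 0 calls each, and the genes named here for an unadjusted p under 0.05 were chosen after their values were seen. Of the 8 genes for the steps of glucose 6-phosphate, the substrate of Isyna1, all were tested, with a median log2 fold change of -0.0070, and Pgm2, a phosphoglucomutase, was at -0.29 with an unadjusted p under 0.05. The 8 genes of the glucuronate and xylulose route, into which the product of Miox flows, had a median of 0.13, with Cryl1 at 0.55 and Sord, the sorbitol dehydrogenase gene, at 0.29 under the same unadjusted p. The list of osmolyte transport and synthesis held 5 genes. Of these Slc5a11, a further sodium-coupled inositol carrier, fell under the filter and was not tested, and 0 of the other 4, namely the taurine carrier gene Slc6a6, the betaine carrier gene Slc6a12, the aldose reductase gene Akr1b3 and Nfat5, a transcription factor of the osmotic response, had an unadjusted p under 0.05. Among the 15 tested kinases and phosphatases of soluble inositol phosphates, Itpkb at 0.28 and Ppip5k2 at -0.23 had an unadjusted p under 0.05. The 9 tested genes of phosphatidylinositol supply and transfer held none of that kind. Of the 20 tested phosphoinositide kinases, Pik3cd was at -0.58 and Pi4ka at 0.16, and of the 20 tested phosphoinositide phosphatases, Synj2 was at -0.64. Some of these genes passed 0.15 under alternatives. Cryl1 passed with DESeq2, the likelihood ratio test, limma-voom and the replicate block, and Synj2 passed with DESeq2, the likelihood ratio test, limma-voom and the clock covariate. Itpkb passed with limma-voom, Ppip5k2 with DESeq2, both of them without Thrb hep-/- mouse 2, and Pik3cd without WT mouse 1.

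**Figure D4:**
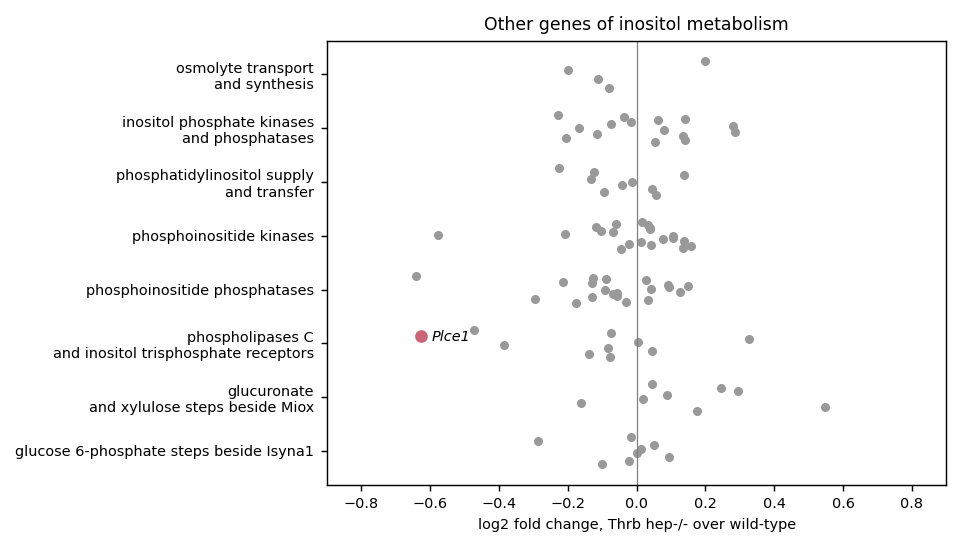
Log2 fold change (Thrb hep-/- minus WT) of the 94 tested genes of the 8 inositol pathway lists, 1 point a gene and 1 row a list. Plce1, the gene past the threshold, is marked at -0.63, and the medians of the lists lie between -0.095 and 0.13.

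The tested genes whose levels were most like that of Isyna1 were found by the root mean square difference of log2 CPM, each gene centred on its mean, over the 10 mice. They were Cyb561 at 0.324, Ccdc120 at 0.354, Dnajc12 at 0.370, Tmprss2 at 0.378 and Gm15318, an antisense RNA, at 0.394, where the median over all tested genes was 0.951. A flat line would be at 0.933. Cyb561, a transmembrane electron carrier gene, was 35.0 ± 8.82 CPM in WT and 9.94 ± 2.47 CPM in Thrb hep-/- liver. This measure is set mainly by the difference between genotypes, for which Isyna1 was chosen, and it is a description. Among the other tested inositol genes the closest was Cdipt at 0.902 and the farthest Slc5a3 at 1.23, where the smaller value is the more alike.

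The neighbour of Isyna1 on chromosome 8, Ssbp4 (ENSMUSG00000070003), a gene for a single-stranded DNA binding protein, was examined after its values were seen. It lies on the opposite strand with its 3′ end 199 bases from that of Isyna1. Its level was 5.15, 6.22, 7.36, 4.61 and 6.17 CPM in WT and 4.59, 3.11, 2.37, 2.15 and 3.93 CPM in Thrb hep-/- mice. The genotypes did not overlap, although the highest Thrb hep-/- mouse lay next to the lowest WT mouse. The log2 fold change was -0.87 (SE 0.21, adjusted p = 0.070, edgeR), and the call was lost without WT mouse 2 (adjusted p = 0.152) or without Thrb hep-/- mouse 3 (adjusted p = 0.170). The pair shares no annotated exon sequence, and reads were counted without strand. Reads of a transcript that ran past its annotated end into the other gene would not be told apart. Ell, 1514 bases upstream of Isyna1, was 54.2 ± 6.15 CPM in WT and 52.4 ± 6.43 CPM in Thrb hep-/- liver (log2 fold change -0.05, adjusted p = 0.89, edgeR). Lrrc25, 18864 bases downstream of Isyna1, was 3.17 ± 1.11 CPM in WT and 1.99 ± 0.475 CPM in Thrb hep-/- liver. Its log2 fold change was -0.67 (SE 0.27, adjusted p = 0.29, edgeR), and the genotypes overlapped.

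Markers of other liver cell types were compared as summed levels. Stellate cell markers were 133 to 191 CPM in WT and 188 to 223 CPM in Thrb hep-/- liver. All 8 had positive log2 fold changes, with a median of 0.34. Of the 8, 3 had an unadjusted p under 0.05 (edgeR), which 13.6% of all tested genes had in either direction. Des and Ecm1 of the 8 passed the threshold and were higher, beside 1.51% of all tested genes higher at it. Endothelial markers were 195 to 225 CPM in WT and 194 to 253 CPM in Thrb hep-/- liver, with 0 of 8 past the threshold. Of these 8, 5 had positive and 3 had negative log2 fold changes, with a median of 0.15. An unadjusted p under 0.05 (edgeR) was found for 3 of them, 1 lower and 2 higher, beside 13.6% of all tested genes. Kupffer cell and leukocyte markers were 83.8 to 326 CPM in WT and 94.3 to 200.5 CPM in Thrb hep-/- liver, with medians of 269 and 140.4 CPM. All 7 tested of these 9 markers had negative log2 fold changes, with a median of -0.75. Of the 7, 4 had an unadjusted p under 0.05 (edgeR), beside 13.6% of all tested genes. The 1 that passed the threshold was S100a8, beside 2.57% of all tested genes lower at it. Erythrocyte markers were 57.0 to 185 CPM in WT and 46.7 to 96.6 CPM in Thrb hep-/- liver. All 4 had negative log2 fold changes, with a median of -0.69. Of the 4, 2 had an unadjusted p under 0.05 (edgeR), beside the same 13.6%, and 0 passed the threshold. Cholangiocyte markers were 24.7 to 46.4 CPM in WT and 24.2 to 28.7 CPM in Thrb hep-/- liver. All 3 tested of these 6 had negative log2 fold changes, with a median of -0.42. Of the 3, 2 had an unadjusted p under 0.05 (edgeR), beside the same 13.6%, and 0 passed the threshold. The part of these differences in the values of Isyna1 and Slc5a3 was not tested. The inositol genes were recomputed under 21 alternatives of filter, normalization, test, covariate and left-out mouse. The log2 fold change of Isyna1 stayed between -1.91 and -1.60, and the number of the other 6 that passed was 0 under each.

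**Figure D5:**
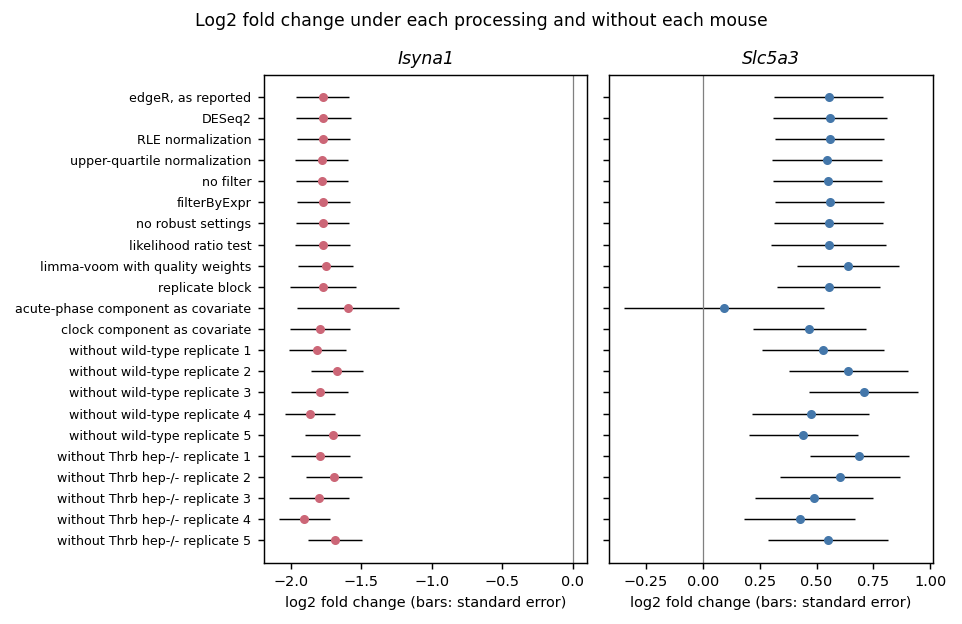
Log2 fold change (Thrb hep-/- minus WT) of Isyna1 and Slc5a3 as reported and under 21 alternatives, with bars of 1 SE. Isyna1 stays between -1.91 and -1.60, and Slc5a3 between 0.09 and 0.71.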

How the data were processed

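Reads were aligned to mm10 by the authors with HISAT2 2.2.1 (version from the submitters' processing notes) and assigned to genes without strand by HTSeq 0.9.1 in union mode, and the deposited values are raw counts. Reads that matched several genes or several places were left out, which lowers genes that share exons. A deposited table of the authors' edgeR comparison (log2 fold changes, p-values) was not used. The members and gene lists were chosen with earlier results of these data known.

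The test was the robust quasi-likelihood F-test of edgeR 4.0.16 (R 4.3.3) with TMM factors, on genes that reached 1 CPM in 5 or more libraries, adjusted by Benjamini-Hochberg over the 12234 genes tested. DESeq2 1.42.0 and limma 3.58.1 were alternatives. The log2 scale used a prior count of 2. The labels number the samples within a genotype without naming animals, so p-values measure the spread between these samples. Named by rule were the 9 members, Thrb, Dio1, genes sharing exons with a member, list genes past 0.15 and the 5 genes most like Isyna1. Exons came from GENCODE on GRCm38. The fit was first tested on simulated data.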

Additional observations from a re-analysis of the deposited data

Results flagged for a closer look

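In groups of 5 mice, 88 groups of values were checked for a mouse far from the others, and 2 were found, where chance would give about 4.4. Plce1 in WT mouse 3 was 13.2 CPM, apart from the 18.2 to 19.0 CPM of the other WT mice. The total count of Thrb hep-/- mouse 2 was 27779196, apart from the 28441288 to 28590704 of the other 4.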

How the results depend on the processing

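The log2 fold change of Isyna1 was -1.91 to -1.67 with a mouse left out and -1.60 with the acute-phase component as a covariate. Genes past an adjusted p of 0.15 numbered 885 with DESeq2, 880 with limma-voom, 7 with the acute-phase covariate and 229 (without Thrb hep-/- mouse 3) to 684 (without Thrb hep-/- mouse 1) with a mouse left out. The count was 256 without WT mouse 2 and 284 without WT mouse 5. Past 0.05 they numbered 502 with DESeq2, 294 with no filter, 285 with limma-voom, 418 with the likelihood ratio test, 3 with the acute-phase covariate, 88 with the clock covariate and 81 to 191 with a mouse left out. Genes of the inositol pathway lists past 0.15 numbered 4 each with DESeq2 and limma-voom, 3 with the likelihood ratio test, 0 with the acute-phase covariate, 2 with the clock covariate and 1 to 3 with a mouse left out (2 without WT mouse 1, 3 without Thrb hep-/- mouse 2). The cause of these shifts was not tested.

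Impa2 turned to -0.83 with the acute-phase covariate and -0.062 with the clock covariate, and ranged from -0.029 (without Thrb hep-/- mouse 3) to 0.30 with a mouse left out. Ippk turned to -0.061 with the acute-phase covariate. Cdipt ranged from -0.081 to 0.011 with a mouse left out, and was positive without WT mouse 2 (0.0052) and without Thrb hep-/- mouse 2. With the acute-phase covariate Thrb was at -0.33 (SE 0.13, against 0.067 without it), Plce1 at -0.46 (SE 0.23) and Ssbp4 at -0.65 (SE 0.39), and none of the 3 passed. Per kilobase of the longest transcript, Isyna1 was at 11.0 CPM in WT and 3.20 CPM in Thrb hep-/- liver, and in the latter it was above Ippk in 5 of 5 mice and ranked 4 in each. By deviations from the genotype means, 0 of the 5 genes most like Isyna1 were shared.

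For each pair of same-numbered mice, the log2 deviations of the tested genes from their genotype means correlated at -0.20 to 0.0091. Whether same-numbered mice share a litter or a batch was not tested. With the replicate block, 2 genes of the lists passed, 348 genes passed 0.15 and Isyna1 was at -1.77.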
